A study of Populus tremula x Populus alba with 7 samples.

Results

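Regions that held a PtrBLH and a PtrCORONA peak, but not a peak of every TF, are described here from ChIP-seq peak lists of 6 poplar TFs. The intervals of the 6 lists were merged wherever they shared at least 1 bp, which gave 5369 regions on the 19 chromosomes. Of these, 691 held both a PtrBLH and a PtrCORONA peak. A peak of all 6 lists was present in 476 of the 691, and the remaining 215 (4.004% of all chromosomal regions) are called co-bound regions below. They were chosen by the peak calls themselves, so the presence or absence of a list in them, and the values of the PtrBLH and PtrCORONA peaks, are given as a description and not as a finding.

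PtrC2H2ZF1, PtrC2H2ZF2, PtrARF5a, PtrBLH, PtrNAC127 and PtrCORONA were each fused to GFP behind the CaMV35S promoter and brought into whole plants of 1 hybrid clone, Populus tremula × alba, by Agrobacterium. After 7 days, leaf chromatin was precipitated with a GFP antibody, with 1 library per TF. All proteins were thus made in excess, transiently, and in leaf rather than in wood. A seventh sample, input chromatin without antibody, served as the control and has no peak list. Leaf identity could not be checked, since peak lists hold no transcript levels.

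PtrBLH is a BEL1-like homeodomain protein. In Arabidopsis, such proteins carry an atypical homeodomain with an enlarged loop and act as dimers with KNOX homeodomain proteins, and members of the family have roles in meristems, leaf shape and secondary wall formation. PtrCORONA belongs to the class III HD-ZIP family, in which a homeodomain stands next to a leucine zipper through which the proteins dimerise. In Arabidopsis this family sets leaf polarity and vascular patterning and is held in check by microRNAs. Both proteins therefore read DNA through a homeodomain, of different classes. PtrARF5a is an auxin response factor, PtrNAC127 a NAC domain protein and PtrC2H2ZF1 and PtrC2H2ZF2 are C2H2 zinc finger proteins. The DNA sequence of the regions and the genes beside them were not analysed here, so each region is given by its position.

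The lists hold 575 to 5397 peaks. PtrBLH has 1023 and PtrCORONA 1159, against 5397 for PtrARF5a. Each peak carries a fold enrichment over the input at its summit and the −log10 of a q-value, as the authors' peak caller gave them, and a higher −log10 q means stronger evidence for the peak. The PtrARF5a library stands apart by its short peaks, of 167 bp or more, while the shortest peaks of the other lists are 284 to 297 bp long. The smallest −log10 q is 2.02 to 4.26. The number of mapped reads per library is unknown here, so a list can lack a peak where signal lay under its threshold. No TF has a second library, hence neither a replicate error nor a test between libraries can be given, and a fold enrichment of 1 library cannot be set against that of another. Shares below carry exact 95% binomial intervals, and medians carry 95% intervals from order statistics. Both cover counting error only, and regions of 1 library are not replicates.

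No region held PtrBLH and PtrCORONA alone. In 176 of the 215 co-bound regions (81.9%, interval 76.0 to 86.8%) the third list was PtrARF5a and no other. PtrARF5a had a peak in 97.2% of all chromosomal regions, and the rule removes the regions that hold every list. The count therefore describes the set and is not read as a trait of it. A further 12 regions held PtrARF5a and both zinc finger proteins, and 10 held PtrARF5a and PtrNAC127. The other 17 were split over 5 combinations of 2 to 7 regions each. That 0 of 215 regions held only PtrBLH and PtrCORONA allows a share of up to 1.40%, taken for counts of 0 as 3 counts of the total and not as a binomial interval. The number of co-bound regions was 215 also when the PtrARF5a list was left out of the rule, and 77 when only peaks with a −log10 q of at least 10 were used.

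**Figure D1:**
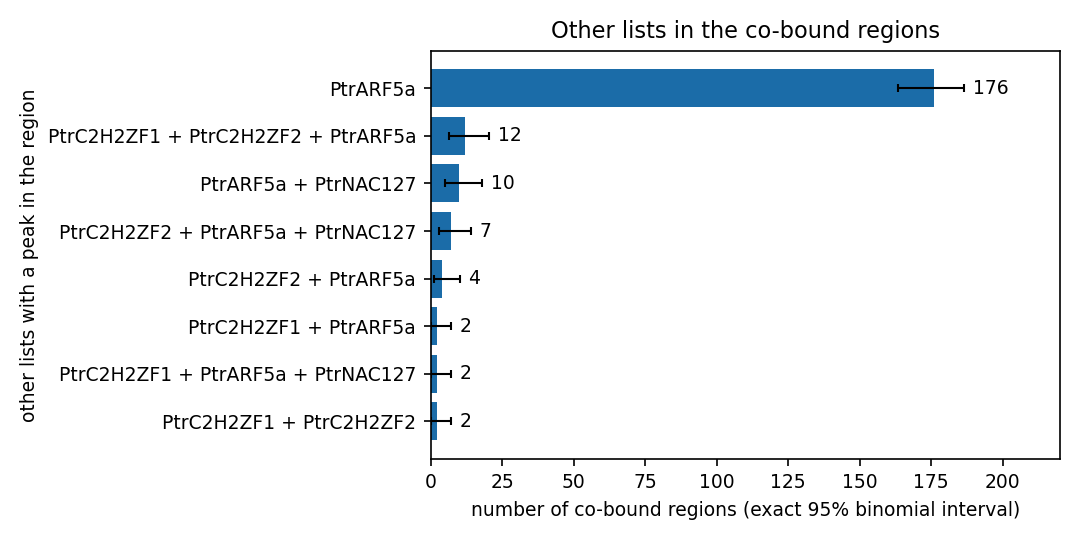
Number of co-bound regions by the other lists with a peak in the region. Bars give counts out of 215 regions and lines the exact 95% binomial interval of the share, scaled to counts. PtrARF5a alone stands beside PtrBLH and PtrCORONA in 176 regions, and no other combination exceeds 12.

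The PtrARF5a list had a peak in 213 of the 215 regions (99.1%, 96.7 to 99.9%). This is near the 97.2% of all chromosomal regions with a PtrARF5a peak, a background that PtrARF5a peaks without another list make up for the most part. Where only one of the homeodomain proteins had a peak, PtrARF5a was present in 225 of 280 regions with PtrBLH and no PtrCORONA (80.4%, 75.2 to 84.8%) and in 352 of 413 with PtrCORONA and no PtrBLH (85.2%, 81.4 to 88.5%). The co-bound share was again above those of regions with a single homeodomain protein for the 1159 strongest PtrARF5a peaks by −log10 q. This is as many peaks as the PtrCORONA list holds. Of the co-bound regions, 152 (70.7%, 64.1 to 76.7%) had such a peak, against 78 of the PtrBLH regions without PtrCORONA (27.9%, 22.7 to 33.5%) and 112 of the PtrCORONA regions without PtrBLH (27.1%, 22.9 to 31.7%). Over all chromosomal regions the share was 20.7%, so here the co-bound share was not near the background. In the regions of all 6 lists the share was 98.7% (470 of 476), above that of the co-bound regions. The co-bound regions also had the higher medians for the homeodomain proteins themselves. PtrBLH fold enrichment was 7.50 in co-bound regions and 5.79 where PtrCORONA lacked a peak, and PtrCORONA fold enrichment was 7.03 in co-bound regions and 6.21 where PtrBLH lacked a peak. Whether the higher PtrARF5a share goes with this difference was not tested.

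The remaining lists were rare, as the exclusion of the regions of all 6 lists imposes. PtrC2H2ZF1 had a peak in 18 co-bound regions (8.37%, 5.04 to 12.9%, against 9.85% of all chromosomal regions) and PtrC2H2ZF2 in 25 (11.6%, 7.67 to 16.7%, against 10.4%). PtrNAC127 had a peak in 19 (8.84%, 5.40 to 13.5%, against 11.8%). All 3 intervals held the background, but that background keeps the 476 regions of all 6 lists, which the rule took out of the co-bound set. Those 476 are among the 529, 561 and 631 chromosomal regions with a PtrC2H2ZF1, PtrC2H2ZF2 and PtrNAC127 peak. Nearness to this background therefore cannot be read as a result. The shares also depended on which lists entered the rule. Without the PtrNAC127 list, PtrC2H2ZF1 had a peak in 2.96% of co-bound regions (1.09 to 6.32%) and PtrC2H2ZF2 in 6.40% (3.45 to 10.7%). Without the PtrC2H2ZF1 list, PtrNAC127 had a peak in 5.77% (3.02 to 9.86%). The regions of a single homeodomain protein, none of which was removed for belonging to all 6 lists, differed most in PtrNAC127. It had a peak in 1 of 280 regions with PtrBLH and no PtrCORONA (0.357%, 0.00904 to 1.97%) and in 91 of 413 with PtrCORONA and no PtrBLH (22.0%, 18.1 to 26.3%). The PtrNAC127 share of the co-bound regions lay between these shares, but the rule bears on it. Of all 691 regions with both peaks, 495 held PtrNAC127 (71.6%), and the rule removed the 476 of all 6 lists. The order of the shares is therefore a description only. At a −log10 q of at least 10 these shares were 11 of 77 co-bound regions (14.3%), 0 of 82 regions with PtrBLH and no PtrCORONA (a share of up to 3.66% by 3 counts) and 78 of 156 with PtrCORONA and no PtrBLH.

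The PtrBLH and PtrCORONA peaks of the co-bound regions were of middle to low strength within their lists. PtrBLH fold enrichment ran from 1.69 to 26.8 with a median of 7.50 (6.88 to 7.86), and PtrCORONA fold enrichment from 1.27 to 19.6 with a median of 7.03 (6.73 to 7.42). In the regions of all 6 lists the medians were 16.8 for PtrBLH and 15.0 for PtrCORONA. Ranked within the whole list of each TF, with 100 as the highest, the median percentile in co-bound regions was 36.8 for PtrBLH and 34.4 for PtrCORONA. The −log10 q told the same of both proteins, with medians of 9.83 and 9.76 in co-bound regions, against 81.8 and 88.5 in the regions of all 6 lists. Neither homeodomain protein led the set. The PtrBLH peak had the higher percentile in 111 co-bound regions and the PtrCORONA peak in 104 (48.4%, against 48.5% of all 691 regions with both peaks). Across the 215 regions the fold enrichments of both proteins went together (Spearman's rho = 0.59), which is a description over regions that share 2 libraries and 1 input. Without the 14 regions that held both zinc finger peaks, described below, rho was 0.50 over 201 regions. With PtrARF5a, over 213 co-bound regions, rho was 0.54 for PtrBLH and 0.54 for PtrCORONA. In the 476 regions of all 6 lists it was 0.75 for PtrBLH and PtrCORONA. The shared order was thus particular neither to this pair nor to the co-bound regions.

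**Figure D2:**
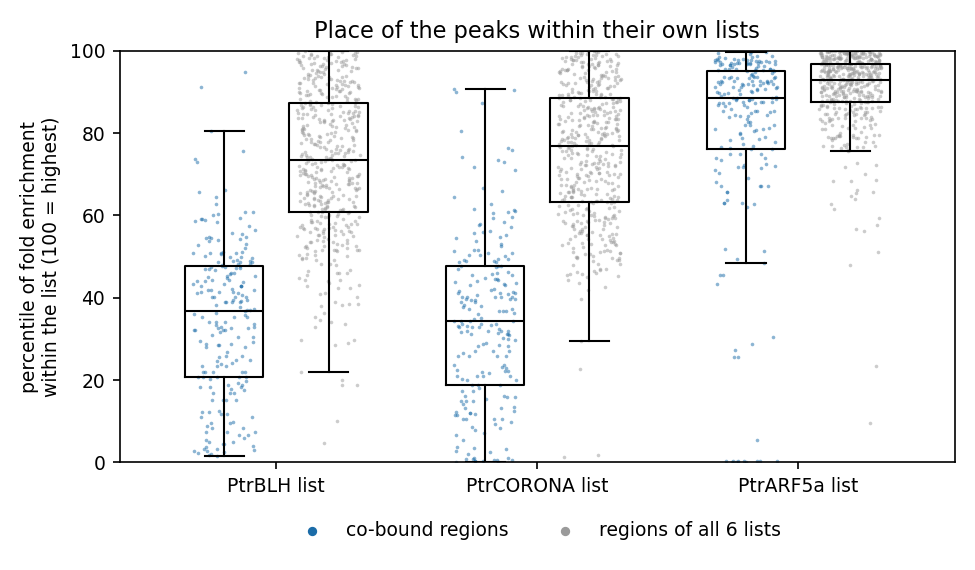
Percentile of fold enrichment within the list of each TF, in co-bound regions (blue, left of each pair) and in regions of all 6 lists (grey, right). Points are regions, boxes give quartiles and medians, and whiskers reach to 1.5 times the box length. Co-bound medians are 36.8 for PtrBLH, 34.4 for PtrCORONA and 88.6 for PtrARF5a.

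The 8 co-bound regions with the strongest evidence for both proteins, ranked by the smaller of their −log10 q values, lay on chromosomes 1, 3, 5, 6, 8 and 16. The first, on chromosome 8 from 6268804 to 6269319, had fold enrichments of 18.6 for PtrBLH, 19.2 for PtrCORONA and 34.8 for PtrARF5a, and 6.52 for PtrC2H2ZF1. It had no PtrC2H2ZF2 or PtrNAC127 peak. The second, on chromosome 16 from 1675727 to 1676275, had 17.4 for PtrBLH, 11.8 for PtrCORONA and 19.3 for PtrARF5a, and no other list had a peak there. It was the strongest region of the homeodomain pair with PtrARF5a alone, with −log10 q values of 51.5, 36.4 and 59.0. On chromosome 1, from 13381866 to 13382422, PtrBLH reached 16.9, PtrCORONA 19.6, PtrARF5a 36.1, PtrNAC127 9.90 and PtrC2H2ZF2 6.86. Only the PtrC2H2ZF1 list lacked a peak there.

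Of the other 5, 2 held PtrNAC127 besides PtrARF5a and no zinc finger peak. On chromosome 3, from 10134251 to 10134848, fold enrichment was 14.5 for PtrBLH, 18.2 for PtrCORONA, 18.8 for PtrARF5a and 6.22 for PtrNAC127. On chromosome 5, from 2479517 to 2480000, it was 13.1 for PtrBLH, 14.1 for PtrCORONA, 19.6 for PtrARF5a and 6.24 for PtrNAC127. A second pair held PtrC2H2ZF2, PtrARF5a and PtrNAC127. The one on chromosome 16, from 4609871 to 4610458, had 12.5 for PtrBLH and 14.3 for PtrCORONA. The other, on chromosome 8 from 5351910 to 5352472, had 13.6 for PtrBLH and 16 for PtrCORONA. The last of the 8, on chromosome 6 from 13703844 to 13704352, held both zinc finger proteins and PtrARF5a, and PtrBLH and PtrCORONA had 14.3 and 11.7. All 8 regions held PtrARF5a, and the summits of PtrBLH and PtrCORONA were 1 to 63 bp apart in them.

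PtrARF5a was strong in the co-bound regions within its own list. Its fold enrichment had a median of 12.8 (12.1 to 13.9) over 213 co-bound regions, with quartiles of 9.23 and 16.8. The median was 7.98 over 225 regions with PtrBLH and no PtrCORONA, 8.27 over 352 with PtrCORONA and no PtrBLH, and 6.16 over 3931 regions where PtrARF5a had the only peak. It was 15.0 over the 476 regions of all 6 lists. These are values of 1 library throughout, and so on 1 scale. The median percentile of PtrARF5a was 88.6 in co-bound regions. Of the 213, 161 (75.6%, 69.2 to 81.2%) lay above percentile 75, against 24% of all chromosomal regions with a PtrARF5a peak. In the regions of all 6 lists 454 of 476 did (95.4%), so a strong PtrARF5a peak was not particular to the co-bound regions. In 196 of 213 regions (92.0%) the percentile of PtrARF5a exceeded those of PtrBLH and PtrCORONA, against 461 of 476 regions of all 6 lists (96.8%), so this order of percentiles was no trait of the co-bound regions. Percentiles of different lists rest on different bases, since the median −log10 q of the whole list is 7.93 for PtrARF5a, 17.7 for PtrBLH and 18.4 for PtrCORONA. The PtrARF5a peaks had a median width of 394 bp in co-bound regions, beside 404 bp for PtrBLH and 416 bp for PtrCORONA, and 36 of 213 (16.9%) lay wholly within both.

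**Figure D3:**
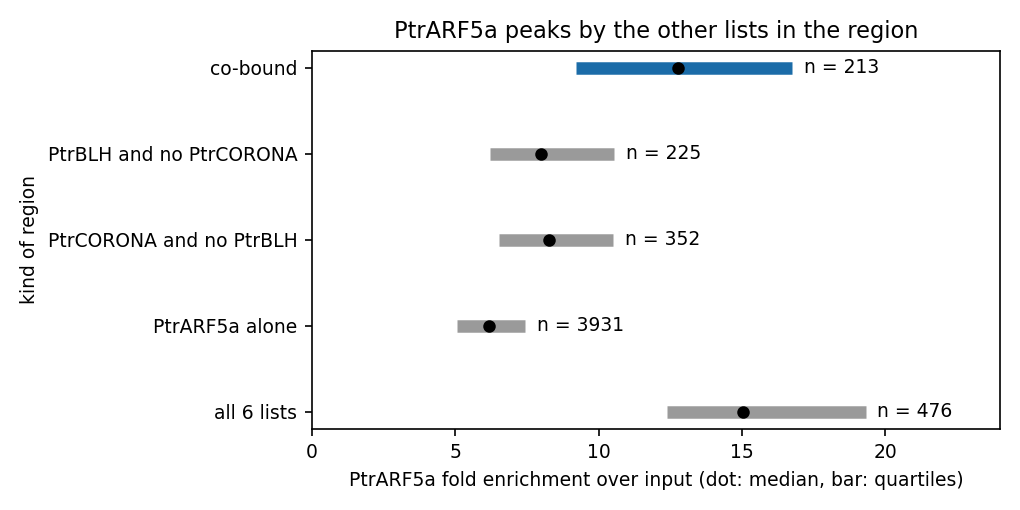
PtrARF5a fold enrichment over the input by kind of region (dots, medians; bars, lower to upper quartile; n, regions with a PtrARF5a peak). Co-bound regions have a median of 12.8, regions with only one of the homeodomain proteins 7.98 and 8.27, PtrARF5a peaks alone 6.16 and regions of all 6 lists 15.0.

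The 14 co-bound regions that held both zinc finger peaks stood apart from the rest in fold enrichment. None held PtrNAC127, but the rule nearly fixes this. With PtrNAC127, such a region could be co-bound only if it lacked PtrARF5a. In 13 of the 14 regions PtrBLH fold enrichment was between 1.69 and 2.75, and PtrCORONA fold enrichment between 1.27 and 3.63. These 13 were all the co-bound regions with a PtrBLH fold enrichment under 3. Such low folds were not particular to co-bound regions or to the zinc finger pair, since 30 of the 280 regions with PtrBLH and no PtrCORONA were also under 3, and 9 of these 30 held both zinc finger peaks. The 14th was the region of chromosome 6 already given. In the 201 other co-bound regions PtrBLH was never under 3.26 and PtrCORONA never under 3.87. The −log10 q did not follow the fold alike in the lists. Its median for PtrBLH was 17.3 in the 13 regions, against 9.77 in the 201, whereas for PtrCORONA it was 8.11 in the 13 regions, against 9.91 in the 201. PtrARF5a had a median fold enrichment of 1.58 in 11 of the 13 regions, against 13.3 in the 201, with a median −log10 q of 6.32 in the 11 regions, against 24.04 in the 201. The remaining 2 regions had no PtrARF5a peak. Those 2, the only co-bound regions without PtrARF5a, spanned 7197423 to 7198397 of chromosome 11 and 14752327 to 14753924 of chromosome 13. The zinc finger proteins had medians of 2.83 (PtrC2H2ZF1) and 3.33 (PtrC2H2ZF2), against 29.5 and 30.2 in the regions of all 6 lists.

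Of these 13 low-fold regions, 7 stood together on chromosome 13 from 14752327 to 14869837. This stretch of 117511 bp held 16 peaks of PtrBLH, 8 of PtrCORONA, 10 of PtrARF5a, 9 of PtrC2H2ZF1, 12 of PtrC2H2ZF2 and 0 of PtrNAC127, in 16 merged regions. No PtrBLH peak in it exceeded a fold enrichment of 2.75, no PtrCORONA peak 2.47 and no PtrARF5a peak 1.96. The strongest PtrBLH and PtrCORONA pair of the stretch, from 14838635 to 14839125, had −log10 q values of 17.3 and 18.8. The other 6 low-fold regions lay on chromosomes 1, 3, 6, 11 and 19. The one with the largest −log10 q for PtrBLH (31.9) was that of chromosome 11, at a fold enrichment of 1.82, where PtrCORONA had a −log10 q of 4.34 at a fold enrichment of 1.27. The lists do not give the read depth at these regions.

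**Figure D4:**
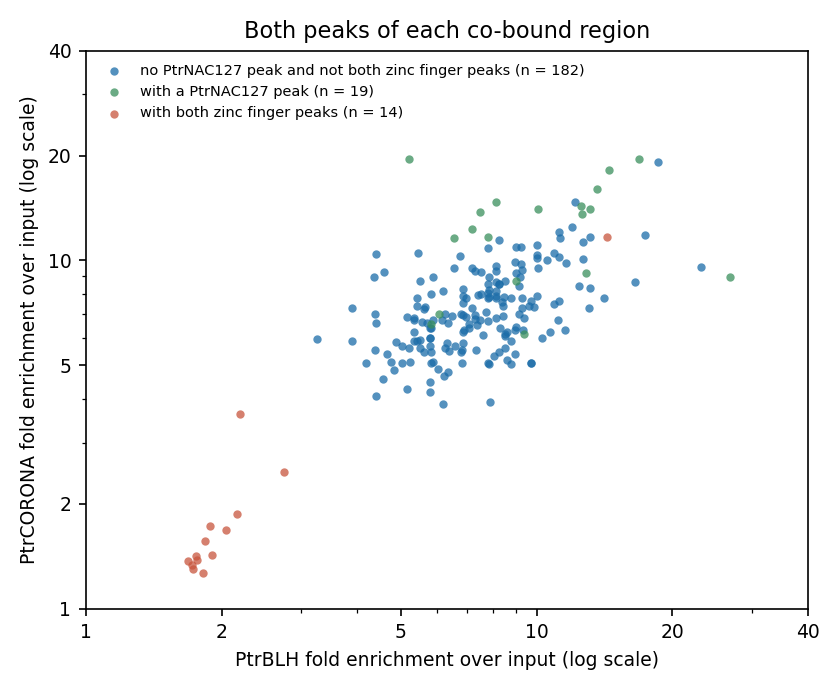
Fold enrichment over the input of the PtrBLH peak (horizontal) and the PtrCORONA peak (vertical) of each co-bound region, both on log scales. Red, regions with both zinc finger peaks (n = 14); green, regions with PtrNAC127 (n = 19); blue, the other 182. In 13 of the 14 red points PtrBLH lies between 1.69 and 2.75, apart from the rest.

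In the 19 co-bound regions with a PtrNAC127 peak PtrCORONA was stronger at the median, most of all where a zinc finger peak was also present. Median PtrCORONA fold enrichment was 13.6 in them, against 6.96 in the 182 regions with neither PtrNAC127 nor both zinc finger peaks. Median PtrBLH fold enrichment was 9.37 and 7.53 in the same sets, and that of PtrARF5a 15.5 and 12.8. Within the lists, the median percentile of these 19 regions was 70.9 for PtrCORONA and 49.0 for PtrBLH. PtrNAC127 itself was weak in them at the median, with a fold enrichment of 7.26 (interval 6.22 to 13.6, range 3.21 to 24.6). Its median percentile was 8.37, with quartiles of 3.52 and 51.3. This value was unstable, since summits extended by 100 bp gave a median percentile of 30.1 over 24 regions. In the regions with PtrCORONA and no PtrBLH, the median fold enrichment of PtrNAC127 was 10.8 (9.36 to 11.6) over 91 regions, and the intervals overlapped. Of the 19, 10 held neither zinc finger peak, 7 held PtrC2H2ZF2 and 2 held PtrC2H2ZF1. In the 10, median fold enrichment was 9.10 for PtrCORONA and 9.19 for PtrBLH, and the median percentiles were level, at 48.3 and 48.2. In the 7 the PtrCORONA median was 14.1, and in the 2 it was 14.3.

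Some regions were called for both homeodomain proteins at very unequal strength. The region with the PtrBLH percentile farthest above that of PtrCORONA (by 47.1) lay on chromosome 3 from 9926181 to 9926710. Its fold enrichments were 26.8 for PtrBLH, 8.98 for PtrCORONA, 22.3 for PtrARF5a and 5.31 for PtrNAC127. The next lay on chromosome 7 from 12695371 to 12695868, with 23.1 for PtrBLH and 9.59 for PtrCORONA. Another region, 3889746 to 3890174 of chromosome 13, had 9.73 for PtrBLH and 5.09 for PtrCORONA. In the other direction, the region on chromosome 19 from 2488995 to 2489534 stood far apart, at a percentile difference of −78.2. It had 5.22 for PtrBLH, 19.6 for PtrCORONA and 24.6 for PtrNAC127, the largest PtrNAC127 value of the set, and the PtrARF5a value was 14.0. It was followed by 21933338 to 21933879 of chromosome 1, with 4.40 for PtrBLH and 10.5 for PtrCORONA. The third, 26955251 to 26955640 of chromosome 6, had 4.35 for PtrBLH and 8.98 for PtrCORONA. The middle 50% of regions differed by −8.93 to 11.0 percentile points.

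The PtrBLH and PtrCORONA peaks overlapped directly in all 215 regions, and by at least 50% of the shorter peak in 210. Their summits, the points of highest enrichment, lay a median of 34 bp apart (26 to 47 bp), against 7 bp (6 to 8 bp) in the regions of all 6 lists. At most 50 bp separated them in 131 of 215 co-bound regions (60.9%, 54.1 to 67.5%), against 83.6% of all 691 regions with both peaks. PtrARF5a summits lay a median of 39 bp (32 to 46 bp) from those of PtrBLH and 42 bp (36 to 52 bp) from those of PtrCORONA in 213 of these regions. The closest pair of summits was PtrBLH and PtrARF5a in 77 of 213 regions, PtrBLH and PtrCORONA in 73 and PtrCORONA and PtrARF5a in 58, with 5 ties. The intervals of the 3 median distances overlapped. The distances share regions and summits, so this overlap cannot show whether a pair of proteins was the nearer one. Summits lay within 10 bp in 49 of 215 regions for PtrBLH and PtrCORONA. They did so in 34 of 213 for PtrBLH and PtrARF5a, and in 32 of 213 for PtrCORONA and PtrARF5a. Whether the pairs differ in distance was not tested.

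The distance between PtrBLH and PtrCORONA summits went with the −log10 q of the peaks. Where the smaller −log10 q of a co-bound region exceeded its median the summits were 21 bp apart (15 to 27 bp, 106 regions), and elsewhere 59 bp (39 to 75 bp, 109 regions). Between a −log10 q of 10 and 20, where both kinds of region occur, the median was 27 bp in 57 co-bound regions and 11 bp in 39 regions of all 6 lists. All 39 of the second kind had summits within 50 bp, and 43 of the 57 co-bound regions. Fold enrichment did not order the regions alike. The 12 regions with PtrARF5a and both zinc finger peaks had a median PtrBLH fold enrichment of 1.89 and a median distance of 13 bp. In the 176 with PtrARF5a as the only other list these were 7.52 and 42 bp. By number of lists, the median distance was 42 bp at 3, 13.5 bp at 4, 11 bp at 5 and 7 bp at 6. Identical summits were found on chromosome 7 from 13000067 to 13000544 (fold enrichments of 7.43 for PtrBLH and 7.95 for PtrCORONA) and in 11250817 to 11251268 of chromosome 6 (9.29 for PtrBLH and 7.28 for PtrCORONA). They were also found in the low-fold stretch of chromosome 13, from 14839364 to 14839875. The widest separation, 412 bp, lay on chromosome 3 from 14288868 to 14289889, in a region of 3 lists with 5.84 for PtrBLH and 8.04 for PtrCORONA. Next came 378 bp in 14350359 to 14350971 of chromosome 10, and 291 bp in 14866899 to 14869837 of chromosome 13, the longest co-bound region. Only 8 regions had summits over 200 bp apart.

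**Figure D5:**
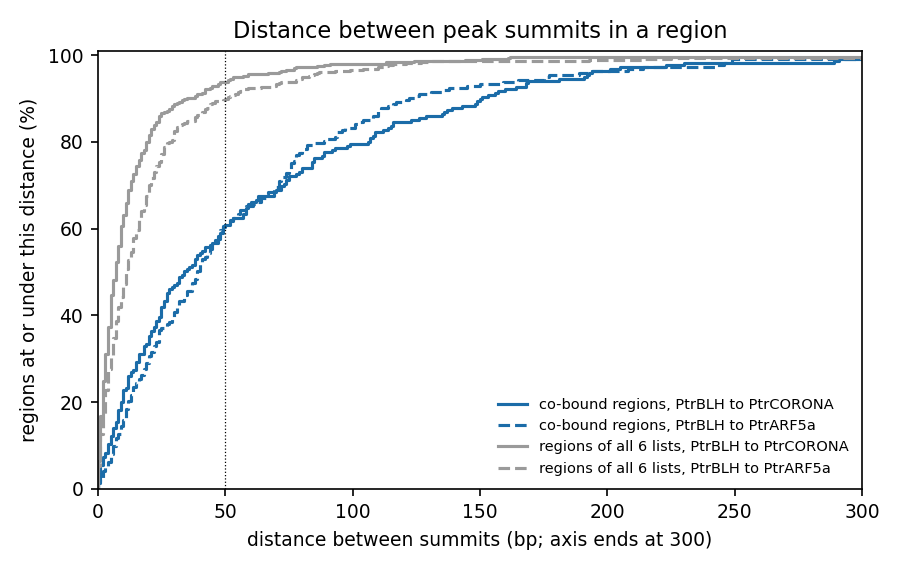
Cumulative share of regions by the distance between summits, for co-bound regions (blue) and regions of all 6 lists (grey). Solid lines give PtrBLH to PtrCORONA and dashed lines PtrBLH to PtrARF5a, and the dotted line marks 50 bp. At 50 bp the solid lines stand at 60.9% in co-bound regions and 93.9% in regions of all 6 lists.

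At the border of the rule, membership turned on a single weak or missing call. Just inside it, among the 21 regions that lacked 1 list only, the largest sums of −log10 q belonged to the regions of chromosome 1 from 13381866, chromosome 16 from 4609871 and chromosome 6 from 13703844, already given. The first 2 lacked PtrC2H2ZF1 and had PtrC2H2ZF2 at −log10 q values of 7.18 and 10.5, and the third lacked PtrNAC127. Just outside it was a region on chromosome 5 from 10002569 to 10003161, with a peak of every list, where PtrC2H2ZF1 had a −log10 q of 4.39 and PtrBLH and PtrCORONA fold enrichments of 18.4 and 24.2. On chromosome 2, from 11887088 to 11887702, PtrC2H2ZF1 had 5.51, with 8.20 for PtrBLH and 33.6 for PtrCORONA. On chromosome 3, from 10298805 to 10299654, PtrC2H2ZF1 had 6.42, with 14.0 for PtrBLH and 11.4 for PtrCORONA. The PtrC2H2ZF1 list has the highest minimum −log10 q of the 6 (4.26), and these regions would have counted as co-bound without that 1 peak.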

How the data were processed

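Peak lists of 6 ChIP-seq libraries were used, 1 per TF, grouped by sample title. The seventh sample, the input, has no list. Per the paper's methods and the submitters' processing notes, the authors used Trimmomatic for trimming, Bowtie2 with default settings for mapping to the genome of clone 717-1B4 (build version not given in the sources used here), SAMtools to drop duplicates and reads with MAPQ under 30, and MACS2 2.1.0 for calling peaks, library by library. The names of the deposited PtrBLH, PtrNAC127 and PtrCORONA lists mark the alignment differently from the other 3, and whether their processing differed is not given. The deposited values are a fold enrichment, which is a ratio to the control at the summit, the −log10 p-value, the −log10 q-value, and a whole-number score, of which the p-value and the score entered no result. Mapped reads per library are unknown.

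Peaks were merged at an overlap of 1 bp. Where a list had several peaks in a region, the one with the largest −log10 q gave its values. Percentiles of fold enrichment were taken within each whole list. Positions count from 1. No test was run, since each TF has 1 library. The planned share of regions with the motif letters of the study was not computed, since a genome sequence was not used here. Named regions follow a rule of rank: the 8 with the largest smaller −log10 q, the 3 with the largest percentile difference in each direction, the 3 with the smallest and the 3 with the largest summit distance, and 3 on each side of the rule's border. The regions with both zinc finger peaks and the 2 without PtrARF5a were named after their values were seen, and the members, sets and rule were chosen with earlier results of these data known. Alternatives were stricter thresholds, other overlaps, scaffolds, wide regions, weakest peaks and lists left out. The code was tested on simulated lists. The code ran in Python 3.11.15 with pandas 2.3.3, numpy 2.4.6 and scipy 1.17.1, and figures were drawn with matplotlib 3.10.9.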

Additional observations from a re-analysis of the deposited data

How the results depend on the processing

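Over 14 alternatives, 127 of 145 values stayed within the 95% interval of the reported value, or for the number of regions within 1.5 times. A −log10 q of at least 10 for all peaks left 77 co-bound regions. Their median fold enrichment was 10.01 for PtrBLH and 9.62 for PtrCORONA and the median summit distance 20 bp, with 80.5% of summits within 50 bp, a PtrARF5a share of 96.1% and a PtrNAC127 share of 14.3%. A −log10 q of at least 5 gave 8.04, 7.52 and a PtrARF5a share of 96.6%. The PtrARF5a share was 96.3% when regions were built from summits extended by 100 bp. A −log10 q threshold drops weaker peaks by construction, which bears on the medians of fold enrichment. The cause of the other shifts was not tested. The scaffolds, the regions over 2000 bp, the weakest peak per region and the 50% overlap moved no value past its interval. Leaving out the PtrARF5a list returned the same 215 regions, since no region with both homeodomain proteins lacked that list alone. Its unchanged values are thus no check, though they count among the 127. Of the alternatives chosen after seeing the data, the PtrARF5a list at the length of the PtrCORONA list gave a PtrARF5a share of 68.8%, and all lists at the highest minimum −log10 q 96.5%. Without the PtrNAC127 list in the rule, 2.96% of regions held PtrC2H2ZF1 and 6.40% PtrC2H2ZF2. Without the PtrC2H2ZF1 list 5.77% held PtrNAC127, which stayed within its interval. Without the regions of both zinc finger peaks these shares were 1.99% and 5.47% by construction, and that of PtrARF5a was 100%. No paired analysis was possible because each TF has 1 library, and no replicate could be left out.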

Other observations

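The co-bound regions were spread over all 19 chromosomes, with 3 on chromosome 18 and 24 on chromosome 1. As a share of all regions with PtrBLH and PtrCORONA peaks, they were 16 of 32 on chromosome 8 (exact 95% binomial interval 31.9 to 68.1%) and 22 of 48 on chromosome 6 (45.8%, 31.4 to 60.8%), against 3 of 26 on chromosome 18 (11.5%, 2.45 to 30.2%), 4 of 29 on chromosome 15 (13.8%) and 5 of 32 on chromosome 14 (15.6%). These are the extremes of 19 chromosomes, picked after their values were seen, and the share over all was 31.1%. On chromosome 13, 7 of the 13 co-bound regions belong to the low-fold stretch.

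Most co-bound regions stood alone. The nearest other co-bound region was a median of 497252 bp away, and the nearest region of all 6 lists a median of 243813 bp. Only 7 had another co-bound region within 10000 bp. Of these, 5 lay in the low-fold stretch of chromosome 13. The other 2 lay on chromosome 1, from 40874767 to 40875295 and from 40878004 to 40878411, 2708 bp apart. The first held PtrC2H2ZF2, PtrARF5a and PtrNAC127 besides the homeodomain proteins, with fold enrichments of 7.79 for PtrBLH and 11.7 for PtrCORONA, and the second only PtrARF5a, with 10.01 for PtrBLH and 7.90 for PtrCORONA. Of the 196 co-bound regions without a PtrNAC127 peak, 7 had one within 10000 bp. A missing peak thus rarely stood close by, at the thresholds of the lists. On the unplaced scaffolds, 2 further regions met the rest of the rule and were left out by it.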
